A study of Mus musculus with 2 samples.

Results

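The 248 peaks described here are the sharp strong p53 peaks of mouse embryonic stem cells treated with Nutlin: autosomal peaks whose caller score was from 1000 to under 3100 and whose width was under 500 bases. They were chosen by score and width from a list of 92924 peaks, of which they make up 0.267%. The peaks of the same score range with a width of 500 bases or more, 3566 in number and called wide here, served for comparison. Sharp peaks were thus 6.50% of the 3814 peaks in that range (exact Clopper-Pearson 95% interval 5.74% to 7.33%).

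The series holds 1 library of chromatin immunoprecipitated with the p53 antibody M-19 and 1 library of input chromatin made with no antibody, both from embryonic stem cells of a C57BL/6X129Sv mix kept under 20 passages in medium with leukemia inhibitory factor. Both were exposed to Nutlin for 8 hours, at a dose of 20 given in µM in 1 place and in mM in another. No untreated library is part of the comparison, so no value measures a response to Nutlin. With 1 library a group, no value has an error between cultures, and the read depth is unknown because the list carries no counts.

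p53 is a transcription factor that is kept scarce by the ubiquitin ligase Mdm2, and Nutlin blocks the contact of Mdm2 with p53 so that p53 accumulates. As a tetramer it recognises a pair of short, nearly palindromic DNA motifs, and it is known as an activator of genes for cell cycle arrest, apoptosis and DNA repair. A factor held at a single short site gives a ChIP-seq signal about as wide as the sequenced fragments, while several sites close together, or broad open chromatin, can give a wider one. The width of a called peak also depends on the caller and on depth. The positions below are in mouse build mm9, counted from 1. Neither the sequence nor the genes of that build were used here, so no motif, base composition or gene is given for any peak.

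Width and score chose the members, and both are given as description only. Sharp peaks had a median width of 434.5 bases (quartiles 382.5 and 474.25, range 207 to 499), against 807.5 bases (quartiles 681 and 1017.8) for wide peaks. The label sharp holds only among strong peaks. Of the autosomal peaks scoring 50 to under 100, 67.7% (35672 of 52711) were also under 500 bases. Summed, sharp peaks covered 105 kb and wide peaks 3221 kb.

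The share of peaks under 500 bases fell along the score scale, with no step at the lower limit of the range. It was 28.3% at scores of 100 to under 200, 18.6% at 200 to under 500 and 11.2% at 500 to under 1000 (465 of 4169). Inside the range it was 9.31% at 1000 to under 1250 (98 of 1053), 5.31% at 1500 to under 2000 (52 of 979) and 4.09% at 2500 to under 3100 (19 of 464). It dropped to 1.88% (28 of 1493) at 3100 or more, where scores pile up: 1379 autosomal peaks had a score of exactly 3100 and 114 a higher one. Sharp peaks accordingly sat toward the lower end of the range, with a median score of 1346.6 against 1586.7. Among sharp peaks themselves, width and score were almost unrelated (Spearman rho of 0.014 across 248 peaks of the same library).

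**Figure D1:**
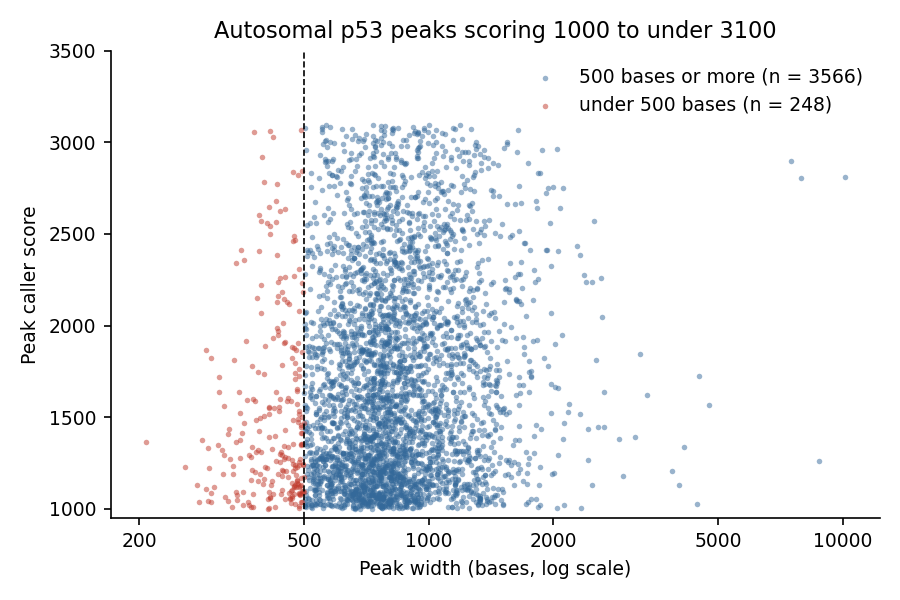
Score against width (log scale) of the 3814 autosomal p53 peaks scoring 1000 to under 3100, 1 point per peak, with the limit of 500 bases dashed. The 248 sharp peaks (red) form the left edge of a single cloud and span the score range from 1000.16 to 3065.25.

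No gap in the data marked the width limit or the lower score limit. At 499 bases there were 3 peaks, scoring 1093.5 to 1466.71, and at 498 bases 2 peaks. At 500 bases there was 1 peak, scoring 1634.15, and at 501 bases 4 peaks, scoring 1052.29 to 2065.97. The highest score at the last width inside belonged to a peak on chromosome 16 from 88429097 to 88429595, with 9 other peaks within 500 kb. The peak of 500 bases was found on chromosome 9 from 75313439 to 75313938, with 72 other peaks within 500 kb. By score, the lowest sharp peak was at 1000.16 and the next narrow autosomal peak below it at 999.51. The upper limit is the value at which scores pile up: the highest sharp peak was at 3065.25, and of the 28 narrow peaks beyond it 25 were at exactly 3100.

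Sharp strong peaks stood in sparser surroundings than wide ones of the same score range. The median sharp peak had 33 other peaks within 500 kb of its midpoint (quartiles 13 and 57.25, range 0 to 198), and the median wide peak had 59 (quartiles 34 and 96, range 0 to 250). Within 100 kb the medians were 6 (quartiles 2 and 12) and 13 (quartiles 7 and 22). The lower quartile of the wide class was therefore about level with the median of the sharp class, and the ranges overlapped over nearly their whole length.

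The difference was tested by autosome, taking the mean over sharp peaks minus the mean over wide peaks of the same chromosome. Within 500 kb it was -22.4 ± 12.8 peaks (mean ± SD over 19 autosomes), from an average of 43.3 around sharp peaks and 65.7 around wide peaks. Sharp peaks had fewer surrounding peaks on 18 of 19 autosomes (exact sign-flip permutation test over autosomes, two-sided, adjusted p = 3.43e-05). Within 100 kb it was -5.69 ± 3.04 peaks, with sharp peaks lower on 19 of 19 autosomes (same exact test, raw p = 3.81e-06, the smallest it can give, adjusted p = 3.43e-05). These p-values, adjusted by Benjamini-Hochberg over 9 tested measures, take chromosomes of a single list as units and do not speak for other cultures.

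Chromosome 4 had the widest gap, with 31.8 peaks within 500 kb of its 11 sharp peaks and 86.7 around its wide peaks. Chromosome 16 followed with 24.3 around 16 sharp peaks against 61.2, and chromosome 11, the autosome with the most peaks per Mb, had 57.0 around 12 sharp peaks against 93.3. The gap was narrower on chromosome 12, with 47.5 against 56.5. Chromosome 19 went the other way by a small amount, with 61.1 around 7 sharp peaks and 60.1 around its wide peaks.

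**Figure D2:**
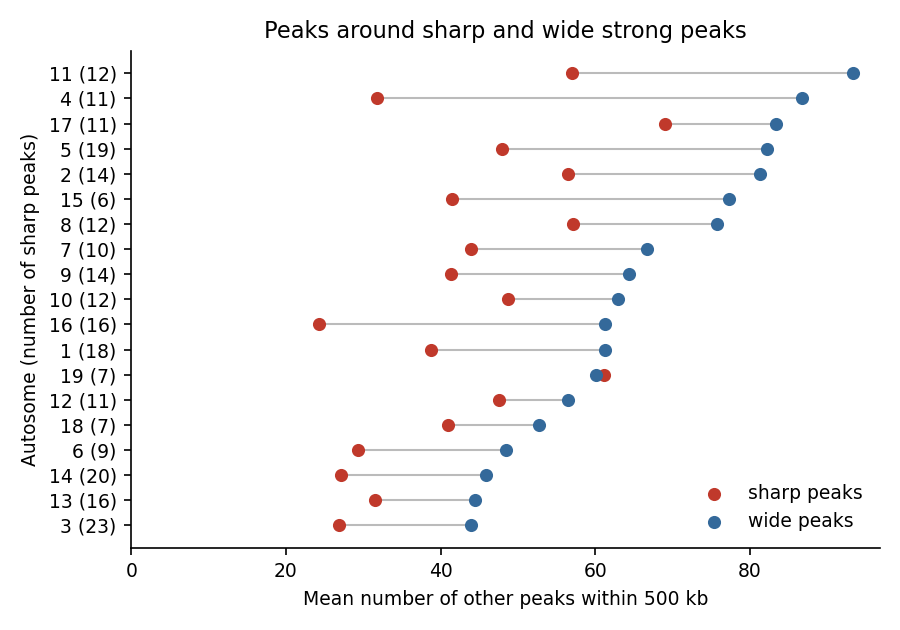
Mean number of other p53 peaks within 500 kb (horizontal axis) of sharp (red) and wide (blue) strong peaks on each autosome, sorted by the wide value, with the number of sharp peaks in brackets. The red point lies left of the blue point on 18 of 19 autosomes, and chromosome 19 is the exception.

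The sharp class also scored lower, so the comparison was repeated inside score bands. At scores of 1000 to under 1500, the median number of peaks within 500 kb was 34 for 150 sharp peaks and 60 for 1600 wide peaks. At 1500 to under 2000 it was 31.5 for 52 sharp peaks and 58 for 927 wide peaks. At 2000 to under 3100 it was 28.5 for 46 sharp peaks and 59 for 1039 wide peaks. The gap was thus no smaller at the highest scores than at the lowest. With the wide peaks of each autosome weighted to the scores of its sharp peaks, the difference was -22.6, against -22.4 unweighted. Inside the score range, score had almost no relation with the number of surrounding peaks (Spearman rho of 0.0041 across sharp peaks and -0.0095 across wide peaks). This does not hold for the whole list. At scores of 50 to under 100 the median count within 500 kb was 65 under 500 bases and 77 at 500 or more. Inside the range these medians were 33 and 59, and at 3100 or more they were 46.5 and 69.

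Read the other way, the sharp share of strong peaks fell as the surroundings filled. It was 24.1% (95% interval 17.4% to 31.9%) among the 145 strong peaks with 5 to 9 other peaks within 500 kb, and 18.9% (10.7% to 29.7%) among the 74 with 0 to 4. It was 12.5% (8.94% to 16.9%) at 10 to 19, 7.61% (6.11% to 9.33%) at 20 to 49 and 4.21% (3.20% to 5.42%) at 50 to 99. In the densest surroundings it was 2.99% (1.81% to 4.63%) at 100 to 149 and 1.402% (0.290% to 4.04%) at 150 or more, where 3 of 214 strong peaks were sharp. The intervals of the first 2 classes overlap widely, so no order between them can be read. Median scores in these classes ran from 1465.6 to 1693.3 with no trend, whereas the median width of all strong peaks rose from 633.5 to 951.5 bases.

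**Figure D3:**
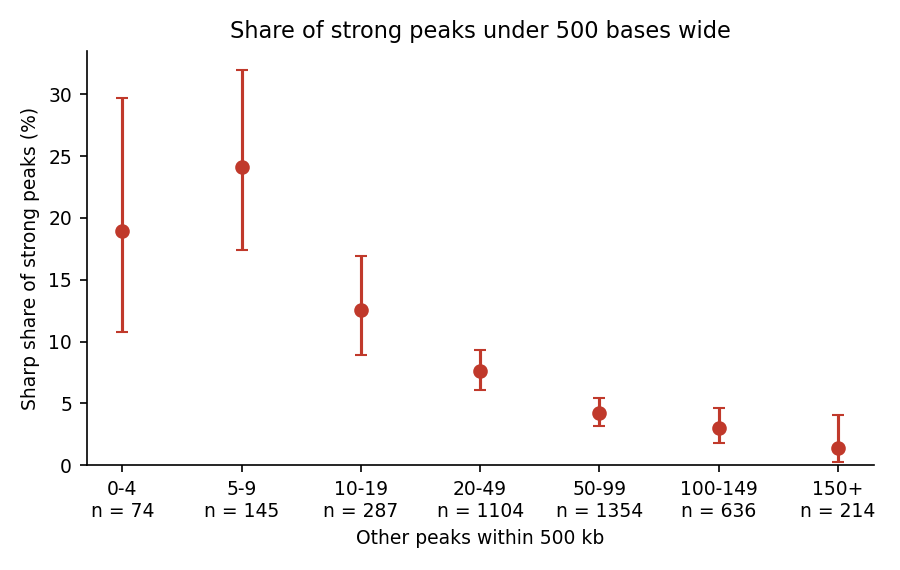
Percent of strong peaks (score 1000 to under 3100) that are under 500 bases wide, by the number of other peaks within 500 kb, with exact 95% binomial intervals and the number of strong peaks in each class. The share falls from 24.1% at 5 to 9 surrounding peaks to 1.402% at 150 or more.

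The same fall appeared at low and at high scores. At 1000 to under 1500, 20.2% of strong peaks with under 20 others within 500 kb were sharp (47 of 233), against 2.60% of those with 100 or more (10 of 384). At 2000 to under 3100 the shares were 16.4% (22 of 134) and 1.23% (3 of 244). In the middle band they were 11.5% (16 of 139) and 4.05% (9 of 222), with 2.59% (9 of 347) at 50 to 99 others, so that the last classes of this band were not ordered.

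The deficit of peaks around sharp peaks was not confined to their immediate neighbourhood. Within 5 kb of the midpoint, other peaks occurred at 52.0 per Mb around sharp peaks and at 91.3 per Mb around wide peaks, a ratio of 0.570. The ratio was lowest at 10 to 20 kb, with 36.7 and 80.7 per Mb (ratio 0.454). It was 0.610 at 100 to 200 kb (42.1 and 69.0 per Mb) and 0.623 at 500 to 1000 kb (37.9 and 60.8 per Mb). At 1500 to 2000 kb it was still 0.703, with 37.1 and 52.9 per Mb. Density around wide peaks fell at every step outward, while around sharp peaks it stayed between 36.7 and 44.4 per Mb at all distances beyond 5 kb.

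**Figure D4:**
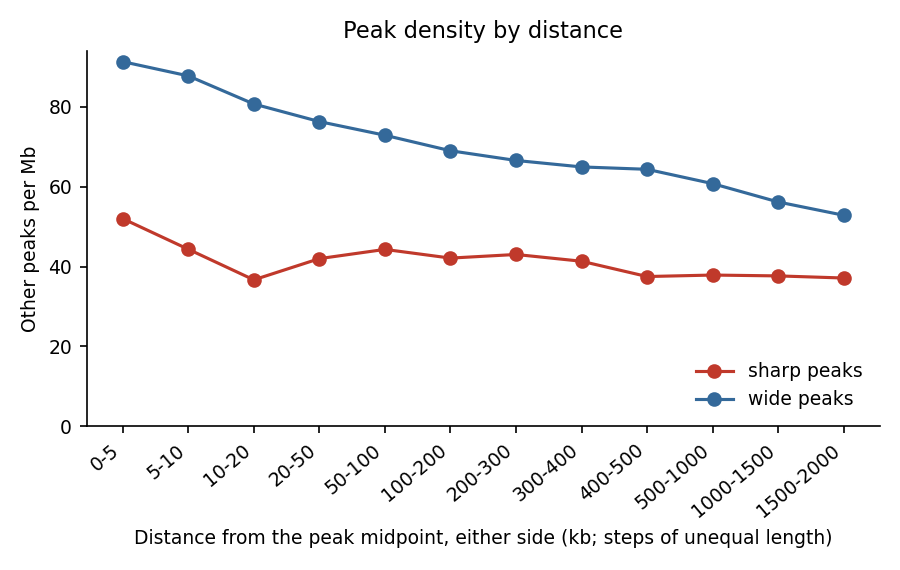
Other p53 peaks per Mb by distance from the midpoint of sharp (red, n = 248) and wide (blue, n = 3566) strong peaks, over both sides, in distance steps of unequal length. The blue line falls from 91.3 to 52.9 per Mb, and the red line lies below it in every step, from 52.0 to 37.1 per Mb.

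Taken over all widths, weak, middle and strong neighbours were all fewer around sharp peaks, in much the same proportion. Within 500 kb, sharp peaks had on average 23.9 other peaks scoring under 100 and wide peaks 39.6, a ratio of 0.604. For neighbours of 100 to under 1000 the means were 15.2 and 25.02 (ratio 0.608), and for neighbours of 1000 or more they were 2.34 and 3.69 (ratio 0.633). Split by the width of the neighbour, those of middle score and 500 bases or more had a ratio of 0.573, and those of middle score under 500 bases a ratio of 0.762. Neighbours that were themselves strong and under 500 bases were rare around both classes, with 0.133 per sharp peak and 0.121 per wide peak. Such neighbours were thus not fewer around sharp peaks (ratio 1.10).

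Sharp peaks also lay farther from the next peak of any kind. Measured from edge to edge, the nearest other peak was 8924 bases away at the median for sharp peaks (quartiles 1875.5 and 29143) and 3579.5 bases for wide peaks (quartiles 821 and 11480). On the log10 scale the distance was longer by 0.27 ± 0.19 (mean ± SD over 19 autosomes), and longer on 17 of 19 autosomes (exact sign-flip permutation test, two-sided, adjusted p = 2.29e-04). Another peak lay within 10 kb of 128 sharp peaks, or 51.6% (95% interval 45.2% to 58.0%), and of 72.2% of wide peaks (70.7% to 73.6%). By autosome this share differed by -15.9 ± 14.0 percentage points, lower for sharp peaks on 16 of 19 autosomes (same exact test, adjusted p = 7.21e-04). Neither passed once the wide peaks of each autosome were weighted to the number of other peaks within 500 kb of its sharp peaks, at 0.018 on the log10 scale (adjusted p = 0.919) and -2.18 points (adjusted p = 0.745) by the exact test. The count within 500 kb includes the near peaks themselves, so this weighting can take out part of each difference by construction. The count within 100 kb was -1.25 peaks under the same weighting (exact test, adjusted p = 4.98e-04), with 4 broad classes of density that leave some difference inside each.

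Close contacts did occur in the sharp class. A gap of at most 1 kb separated 44 of 248 sharp peaks (17.7%, 95% interval 13.2% to 23.1%) from another peak, against 28.1% of wide peaks (26.7% to 29.6%). With all such peaks left out of both classes, the difference within 500 kb was -19.7 peaks and that within 100 kb -4.96. Of the strong peaks with another peak under 100 bases away, 6.67% were sharp (16 of 240, 95% interval 3.86% to 10.6%). The share was 3.47% (28 of 807, 2.32% to 4.98%) at 100 to under 1000 bases, and these intervals overlap. It was 16.3% (22 of 135, 10.5% to 23.6%) at 50 to under 100 kb and 13.3% (13 of 98, 7.26% to 21.6%) at 100 kb or more.

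Strong neighbours were likewise farther away. The nearest peak of score 1000 or more was 159822 bases off at the median for sharp peaks (quartiles 59478 and 382419) and 91359 bases for wide peaks. Such a neighbour lay within 100 kb of 92 sharp peaks, or 37.1% (95% interval 31.1% to 43.4%), and of 52.5% of wide peaks (50.8% to 54.1%). The difference by autosome was -14.4 ± 16.2 percentage points, with sharp peaks lower on 17 of 19 autosomes (exact sign-flip permutation test, two-sided, adjusted p = 0.00106). It did not pass the threshold once wide peaks were weighted to the sharp peaks' number of surrounding peaks, at -3.29 points (exact test, adjusted p = 0.711). That number includes the strong neighbours themselves, so the same limit holds for the weighting here. With a width limit of 450 bases the difference was -11.9 points (exact test, adjusted p = 0.0806). Within 10 kb, 12 sharp peaks (4.84%, 2.52% to 8.30%) and 11.05% of wide peaks (10.04% to 12.1%) had a strong neighbour.

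The peaks around sharp peaks were slightly narrower and scored slightly higher. Over the 234 sharp and 3477 wide peaks with at least 1 peak under 1000 within 100 kb, the median width of those surrounding peaks averaged 488.8 bases for sharp and 505.2 bases for wide peaks, a difference of -16.4 ± 26.7 bases (lower on 13 of 19 autosomes, exact sign-flip permutation test, two-sided, adjusted p = 0.0201). Their median score was higher by 0.12 ± 0.19 on the log2 scale around sharp peaks, and higher on 15 of 19 autosomes (same exact test, adjusted p = 0.0135). Neither difference passed once density was balanced, at -7.94 bases (adjusted p = 0.709) and 0.034 (adjusted p = 0.711) by the exact test. Nor did either pass among scores of 1500 or more, at -10.7 bases (adjusted p = 0.442) and 0.097 (adjusted p = 0.347) by the exact test. The single nearest peak had a median width of 472 bases for sharp peaks and 508 for wide peaks, and a median score of 96.0 and 91.1.

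Sharp peaks were not shown to sit beside other sharp peaks. The nearest other peak of the score range was itself sharp for 30 of 248 sharp peaks (12.1%, 95% interval 8.31% to 16.8%) and for 6.23% of wide peaks (5.45% to 7.07%). By autosome the difference was 3.69 ± 13.3 percentage points, higher on 7 and lower on 12 of 19 autosomes (exact sign-flip permutation test, two-sided, adjusted p = 0.246). With density balanced it was -0.050 points. The 248 peaks fell into 233 bins of 1 Mb, 218 of them with 1 sharp peak and 15 with 2, and no bin held 3. At a mean of 0.105 sharp peaks per Mb few bins would hold more than 1, so these counts do not show whether sharp peaks cluster.

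Consecutive sharp peaks on a chromosome were 6.00 Mb apart at the median (229 pairs), and 3 pairs were within 100 kb. The closest pair lay on chromosome 1, from 189838328 to 189838820 (493 bases, score 1033.96) and from 189846184 to 189846614 (431 bases, score 1972.09), with 7363 bases between them. A pair on chromosome 13, from 62358882 to 62359223 (342 bases) and from 62388300 to 62388637 (338 bases), was 29076 bases apart. The third pair lay on chromosome 14, from 56592621 to 56592931 (311 bases) and from 56645454 to 56645920 (467 bases), 52522 bases apart. Of the 1 Mb bins with 2 sharp peaks, the first by position are on chromosome 1, from 5000001, 66000001 and 189000001. They held 22, 14 and 48 peaks in all, and 0, 0 and 1 wide peaks of the score range. The bins from 5000001 and from 66000001 thus held sharp peaks as the sole peaks of the score range. The bin from 5000001 also held a peak of 507 bases at a score of 3100, outside that range.

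Along the chromosomes, sharp peaks were spread over all 19 autosomes, at 0.105 ± 0.033 per Mb (mean ± SD), from 0.060 on chromosome 15 to 0.168 on chromosome 16. The order of autosomes by sharp peaks was not that of peaks in general. Chromosomes 14 and 3, which had 27.1 and 25.6 peaks of any kind per Mb, had the highest sharp shares of strong peaks, 12.6% (20 of 159, 95% interval 7.86% to 18.8%) and 11.9% (23 of 194, 7.67% to 17.3%). Chromosome 11, with 61.2 peaks per Mb, had 4.18% (12 of 287, 2.18% to 7.19%), and chromosome 15 the lowest share, 3.51% (6 of 171, 1.30% to 7.48%). Across the 19 autosomes the sharp share and the overall density had a Spearman rho of -0.48 and a Pearson r of -0.59, given as a description since all come from the same library. Most intervals of single autosomes overlap.

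No excess or deficit at the chromosome end far from the centromere could be shown for the sharp class. Taking the outermost peaks of each autosome as its ends, the last 10% contained 26 sharp peaks (10.5%, 95% interval 6.96% to 15.0%) and 15.6% of wide peaks (14.5% to 16.9%). The difference by autosome was -4.51 ± 13.7 percentage points, lower on 14 of 19 autosomes (exact sign-flip permutation test, two-sided, adjusted p = 0.189). Without chromosome 19, which has 7 sharp peaks, it was -6.65 points (adjusted p = 0.0173 by the exact test), and with a width limit of 450 bases -6.66 points (adjusted p = 0.0146), so the call depends on both choices. Density balancing left -0.48 points. By steps of 10% of the length, the sharp share of strong peaks ranged from 3.77% between 20% and 30% of the way to 9.50% between 50% and 60%.

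The count of surrounding peaks rose with width above 500 bases, and it had no step at that limit. Median counts of other peaks within 500 kb were 27 for the 38 strong peaks of 200 to 349 bases, 24.5 for the 42 of 350 to 399, 39 for the 65 of 400 to 449 and 34 for the 103 of 450 to 499. They were 38 at 500 to 549 bases (201 peaks), 46 at 600 to 699 (565 peaks), 65 at 800 to 999 (899 peaks) and 94.5 at 1500 or more (172 peaks). Inside the sharp class the classes were not ordered, with a Spearman rho of 0.10 between width and this count, against 0.33 inside the wide class. Another peak within 10 kb was found for 44.7% of the peaks of 200 to 349 bases, 58.3% of those of 450 to 499 bases and 93.0% of those of 1500 bases or more.

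**Figure D5:**
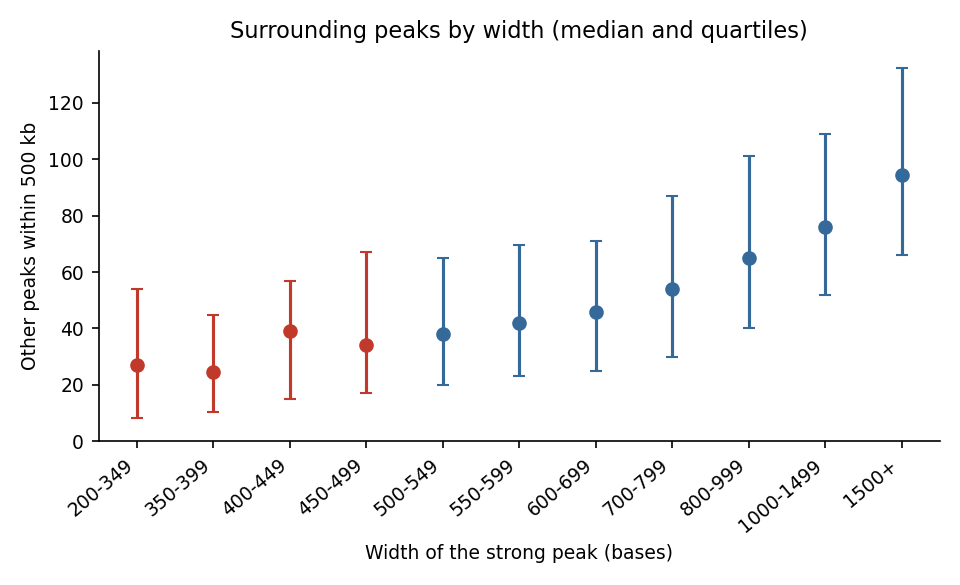
Number of other p53 peaks within 500 kb by the width of the strong peak, as medians with quartiles, for sharp (red) and wide (blue) width classes. Medians run from 24.5 to 39 in the sharp classes and rise from 38 at 500 to 549 bases to 94.5 at 1500 bases or more.

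The same split at 500 bases gave lower counts for narrow peaks at other scores too, so sparse surroundings were not particular to strong ones. Narrow peaks scoring 500 to under 1000 had a median of 34 other peaks within 500 kb and wide ones 62. At 200 to under 500 the medians were 40 and 68, and at 50 to under 100 they were 65 and 77. The mean differences by autosome were -23.2 ± 9.11 and -21.8 ± 8.47 peaks at 500 to under 1000 and 200 to under 500, and -8.72 ± 3.17 at 50 to under 100, with narrow peaks lower on 19 of 19 autosomes in all 3. Whether the difference varies with score was not tested, and this comparison was added after the data had been seen.

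The sharp peaks of highest score differed widely in their surroundings. First came a peak on chromosome 5 from 134995421 to 134995912 (492 bases, score 3065.25), with 128 other peaks within 500 kb and the nearest 1517 bases away. Next was a peak on chromosome 16 from 81913761 to 81914173 (413 bases, score 3064.33), with 3 other peaks within 500 kb and the nearest 64785 bases away. A peak on chromosome 1 from 145578049 to 145578426 (378 bases, score 3055.86) had 8. This last peak had the most score per base of all members, 8.08. The nearest other strong peak to each of the latter was over a megabase off, at 1629305 and 1689685 bases.

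After these by score came a peak on chromosome 14 from 57701139 to 57701558 (420 bases, score 3030.28), with 47 other peaks within 500 kb and a weak peak of score 58.25 only 69 bases away. The fifth, on chromosome 18, was 396 bases wide with a score of 2919.75 and had 88 other peaks within 500 kb. The 5 highest by score per base were these peaks without the one on chromosome 5, and a peak on chromosome 11 from 23301421 to 23301820 (400 bases, score 2782.64, 6.96 per base). The top of the sharp class thus held members of both dense and nearly empty surroundings.

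The narrowest member, 207 bases on chromosome 16 from 56209578 to 56209784 (score 1365.88), lay 141 bases from a peak of 202 bases with a score of 753.52. The next were 258 bases on chromosome 13 from 66833772 to 66834029 (score 1225.21), 275 bases on chromosome 1 from 68970056 to 68970330 (score 1130.74) and 278 bases on chromosome 4 from 8485574 to 8485851 (score 1036.65). The fifth, 284 bases on chromosome 16 from 67238927 to 67239210 (score 1376.4), had its nearest peak 236659 bases away. Other peaks within 500 kb numbered 30, 14, 6, 34 and 4 for these 5, all but 1 of them at or below 33, the median of the sharp class.

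Of the 248 sharp peaks, 23 (9.27%, 95% interval 5.97% to 13.6%) had 5 or fewer other peaks within 500 kb, against 2.22% of wide peaks (1.76% to 2.75%). These 23 lay on 11 autosomes, had a median width of 409 bases and scores from 1000.16 to 3064.33. By this choice few of them can have strong neighbours: 1 had a strong peak within 100 kb and 7 had one within 500 kb. The peak on chromosome 2 from 82103388 to 82103715 (328 bases, score 1043.63) had 0 other peaks within 500 kb, its nearest being 644174 bases away. The peaks on chromosome 8 from 105024720 to 105025091 (score 1154.3) and on chromosome 14 from 82687137 to 82687627 (score 1168.04) had 2 each.

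At the dense end, 22 sharp peaks (8.87%, 95% interval 5.64% to 13.1%) had 100 or more other peaks within 500 kb, against 23.2% of wide peaks (21.8% to 24.6%). Their median width was 462.5 bases and their median score 1585.06. By this choice strong neighbours are more likely: 16 of the 22 had a strong peak within 100 kb, against 37.1% of all sharp peaks. The most neighbours, 198, were around a peak on chromosome 8 from 124356525 to 124356871 (347 bases, score 1638.25). A peak on chromosome 1 from 121104279 to 121104728 (450 bases, score 1911.26) had 173 and a strong peak 117 bases away. A peak on chromosome 11 from 97497479 to 97497965 (487 bases, score 1087.34) had 150 and its nearest peak 125 bases away.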

How the data were processed

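The authors deposited 1 list of peaks, p53 ChIP against input, without a header. The score of each peak was deposited by the authors as their caller wrote it; CASAVA 1.8.2, MACS 1.4.1 and build mm9 are named per the submitters' processing notes. In MACS of this version the score is the p-value against input on a −log10 scale, multiplied by 10, and the lowest value was 50. The aligner, read totals, duplicate treatment and caller settings are not stated in any source at hand, which leaves the depth per library unknown. Such scores and widths grow with depth, and no comparison goes beyond this list.

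Members and measures were chosen with earlier results of these data known. Distances to other peaks ran from edge to edge, and counts used midpoints. Each of 9 measures was averaged over sharp and over wide peaks of each autosome, and the 19 differences were tested with an exact two-sided sign-flip permutation test (524288 sign patterns), Benjamini-Hochberg adjusted, threshold 0.05. This takes autosomes as independent. Shares have exact Clopper-Pearson 95% intervals that treat peaks as independent and cover counting error only. Alternatives changed the width limit, score range, surrounding list, distances and autosomes. Planned comparisons of motifs, base composition and genes could not be made without a genome of build mm9. Named peaks were the 5 of highest score, the 5 narrowest, the 5 with most score per base, the 3 with most and the 3 with fewest other peaks within 500 kb, the 3 closest pairs, the first 3 of the fullest 1 Mb bins, and the highest score at the last width inside and the first outside 500 bases; ties went by chromosome and start. Functions were tested on simulated lists. Python 3.11.15, NumPy 2.4.6, pandas 2.3.3, SciPy 1.17.1 and Matplotlib 3.10.9 were used.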

Additional observations from a re-analysis of the deposited data

How the results depend on the processing

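Each of the 9 measures was recomputed 28 to 32 times, 264 values in all. For each measure, 19 of these values leave out 1 autosome and change little of the data. All reuse 1 list and are no independent support. Some could not differ from the main value. Counting only surrounding peaks of score 100 or more does not alter the strong neighbour share or the share in the last 10%. Nor does it alter the sharp share of the nearest strong peak. For the counts within 100 kb and 500 kb, some values come from other score ranges, and so from other peaks. With all of these included, 249 of the 264 kept their direction and their side of the 0.05 threshold. The counts within 100 kb and 500 kb kept both in every alternative run, and so did the nearest distance and the share within 10 kb except with density balanced, which was not run for the count within 500 kb because that count is what it balances. The difference within 500 kb ranged from -24.4 (width limit 450 bases) to -9.28 when only surrounding peaks of score 100 or more were counted, which by construction leaves fewer peaks; within 100 kb that alternative gave -2.36. The share with a near peak differed by -7.86 points at 50 kb. Values that no longer passed were, at a width limit of 450 bases, a strong neighbour share of -11.9 points and a surrounding width of -15.6 bases; at a score minimum of 1500, a surrounding width of -10.7 bases and a surrounding score of 0.097; without peaks that have another within 1 kb, a surrounding width of -14.3 bases; with surrounding peaks of score 100 or more, a surrounding score of 0.070; on the 15 autosomes with 10 or more sharp peaks, a surrounding score of 0.109. With density balanced, added after seeing the data, the share with a near peak (-2.18 points), the nearest distance (0.018), the strong neighbour share (-3.29 points), the surrounding width (-7.94 bases) and the surrounding score (0.034) no longer passed, the count within 100 kb shrank to -1.25, and the sharp share of the nearest strong peak turned to -0.050 points. The share in the last 10% passed at a width limit of 450 bases (-6.66 points) and without chromosome 19 (-6.65 points). The cause of these shifts was not tested, and the count used for density balancing includes the near and strong neighbours themselves. Leaving out each autosome in turn, the difference within 500 kb ran from -23.7 to -20.6. No paired analysis was possible because ChIP and input have 1 library each, which also leaves no replicate to omit. Weak neighbours depend on a read depth that is unknown.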

Other observations

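Chromosome X, left out because the members were taken from autosomes only, held 40 peaks scoring 1000 to under 3100. Of these, 9 were under 500 bases (22.5%, exact 95% interval 10.8% to 38.5%). On the autosomes the share was 6.50% (5.74% to 7.33%) in all, and at most 12.6% on any of them. Few peaks of the list lie off the autosomes (92231 of 92924 are autosomal), and the share on chromosome X was not compared at equal peak density. With scores of 3100 or more, 28 autosomal peaks were under 500 bases, at a median of 449 bases; they had 46.5 other peaks within 500 kb at the median, against 69 for the 1465 wide peaks of such scores.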
